A study of Mus musculus with 32 samples.

Results

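The genes examined here encode the nuclear subunits of the mitochondrial respiratory chain and of the ATP synthase. They were chosen by symbol: all genes of the array whose names begin with Ndufa, Ndufb, Ndufc, Ndufs, Ndufv, Uqcr, Atp5 or Cox followed by a subunit number, together with Sdha to Sdhd. The array carried 85 such genes. A probe was kept where it was detected above the negative controls (detection p under 0.05) on at least 3 arrays. That left 75 genes, each read by its brightest probe, of 10903 genes tested in all. The other 10 are accounted for further on. Among the 75 were 33 genes of complex I, 3 of complex II, 6 of complex III, 12 of complex IV and 15 of the ATP synthase (complex V), with 5 complex I assembly factors (Ndufaf genes) and Cox7a2l, a factor of respiratory supercomplexes. Ndufa4, named for complex I, was placed with complex IV, where its protein is now known to sit.

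The respiratory chain passes electrons from NADH (complex I) and succinate (complex II) over coenzyme Q to complex III, from there by cytochrome c to complex IV and on to oxygen. Complexes I, III and IV pump protons across the inner mitochondrial membrane, and the ATP synthase lets them flow back to make ATP. Most subunits are encoded in the nucleus, and a smaller set, which the symbols do not cover, in mitochondrial DNA. The complexes are made with fixed numbers of each subunit, and unassembled subunits are commonly degraded, so the mRNA of a subunit is not a measure of its complex.

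RNA came from immortalized MEFs, the connective tissue fibroblasts that grow out of mouse embryos. KO cells lacked Spry1, Spry2 and Spry4, which encode Sprouty inhibitors of receptor tyrosine kinase signalling. WT cells carried the same 3 genes in floxed, intact form. Cells of both genotypes had been starved of serum in DMEM with bovine serum albumin, penicillin and streptomycin. RNA was taken at 0 min and at 15, 60, 120 and 240 min of FGF and read on 32 Illumina bead arrays. There were 4 arrays per genotype at 0 min and 3 at each later time, 16 per genotype. No source used here gives the form or dose of FGF, the number of lines or clones per genotype or the way the floxed genes were deleted. No later array was left without FGF. A difference between KO and WT is therefore a difference between these cell populations. The replicates are called biological, but nothing states that each was a culture of its own. The p-values therefore reflect only how far these arrays spread, which may be technical.

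KO arrays detected 11516 to 12470 of 25697 probes and WT arrays 11319 to 11978, and the lowest correlation between arrays of a group was 0.991. Fibroblast markers were detected for 8 of 8 genes, 7 of them on all arrays, with a summed level of 13100 to 15900 on KO and 19900 to 22100 on WT arrays (normalized intensity units). Singly, 4 of the 8 were higher in KO averaged over the times, 3 were lower and 1 did not pass, with a median log2 difference of 0.18. The leukocyte markers Ptprc, Adgre1 and Itgam, the endothelial Pecam1 and Cdh5, the muscle markers Ckm and Myod1, the adipocyte markers Adipoq, Fabp4 and Plin1 and the epithelial Krt18 were detected on fewer than 3 arrays. The other 2 of 4 endothelial markers passed the detection filter. Averaged over the times, 1 of them was higher in KO and 1 did not pass (median log2 difference 0.14). The other 2 of 4 muscle markers passed the filter too, and neither was called (median -0.04). Summed epithelial markers lay at 75.5 to 95.1 on KO and 122 to 222 on WT arrays, with Krt8 lower (log2 -1.73) and Cdh1 higher (0.28) in KO. The leukocyte marker Lyz2, detected on 18 of 32 arrays, was higher in KO (0.69), as was the adipocyte marker Pparg (1.16), with summed adipocyte markers at 151 to 199 on KO and 101 to 132 on WT arrays. The part of these differences in the results was not tested. Of the Sprouty genes, 2 of 4 passed the detection filter. Spry4 was detected on 17 of 32 arrays and was lower in KO averaged over the times (log2 -0.85 ± 0.0668 SE, limma adjusted p = 4.39e-12). Spry3 is not among the deleted genes of the labels, yet it was detected on 0 of 16 KO and 16 of 16 WT arrays. Its mean level was 4.42 on KO arrays, where it was not well above background, and 6.76 on WT arrays. KO cells thus had at least 3.71-fold less of it, set against the higher of its own value and the lowest detected probe of each KO array (limma adjusted p = 4.09e-26). No source used here places the probes relative to the deleted parts.

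The 75 genes were bright. Their mean levels, as log2 normalized intensity, had a median of 11.33 and ran from 5.01 to 14.52, while the median of all genes was 6.76. On all 32 arrays 74 of the 75 were detected, and the exception was Cox7a1, the heart and skeletal muscle form of a complex IV subunit, on 22. The 10 genes left out were detected on at most 1 array each. They include the tissue forms Cox4i2, Cox6a2, Cox6b2, Cox7b2, Cox8b and Cox8c, whose counterparts Cox4i1, Cox6a1, Cox6b1, Cox7b and Cox8a were detected on all arrays. The other 4 were Ndufs1, Uqcrfs1, Uqcrq and Atp5k. Ndufs1 and Uqcrfs1 encode iron-sulphur proteins at the core of complexes I and III that every respiring cell uses, so a probe below background shows only that this probe gave no signal. Levels are not compared between genes, since each rests on another probe.

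Loss of the Sprouty genes went with small changes in both directions. Averaged over the 5 times, 32 of the 75 genes were higher in KO and 23 were lower, and 20 did not pass (moderated test in limma, Benjamini-Hochberg adjusted p under 0.05 over all 10903 genes, 16 arrays per genotype). Of all genes tested, 31.8% were higher and 35.6% lower by the same rule, so the shares of these genes (42.7% and 30.7%) lie near those of the array at large. Among the 1836 other genes at or above the lower quartile of the members' mean levels (9.47), 82.6% were called, 39.5% higher and 43.1% lower. The members' log2 differences ran from -0.97 to 0.54 with a median of 0.05, while the median of all genes was -0.02. Their median absolute difference was 0.17, against 0.22 for all genes. The balance of higher and lower depended on how arrays were scaled. With each array set to the median of the kept probes 19 genes were higher and 31 lower, and with the median of all probes 20 and 25. In bulk RNA, fewer transcripts per cell and fewer cells that hold them cannot be told apart.

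**Figure D1:**
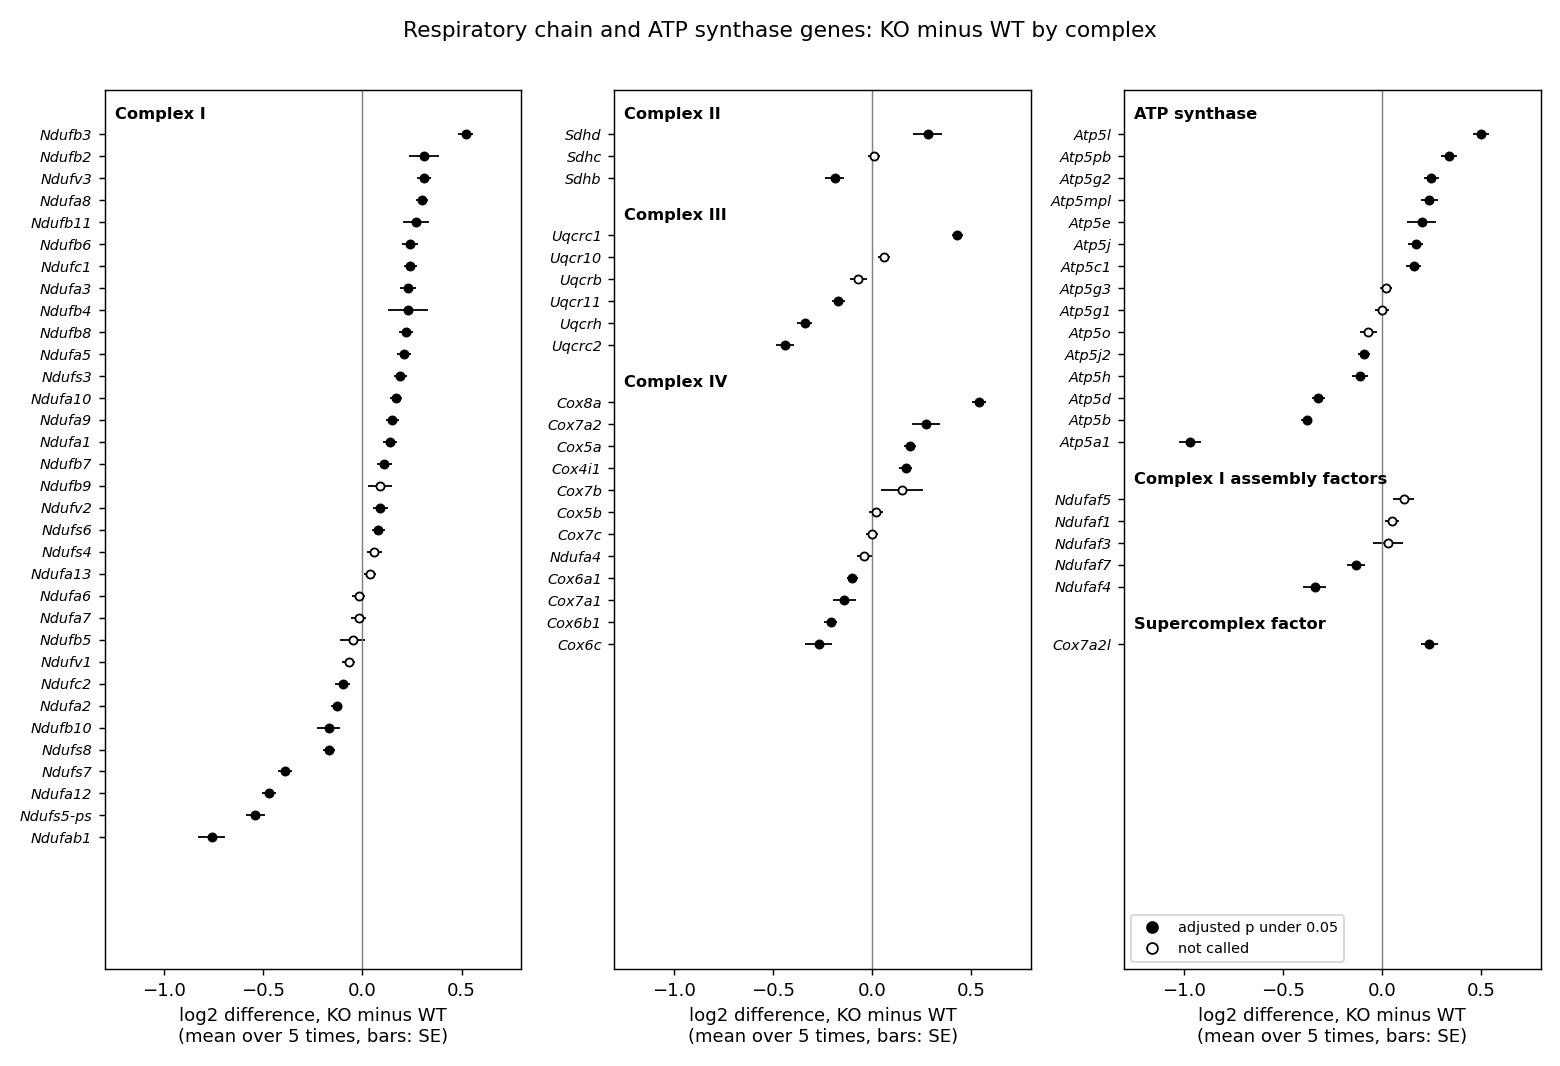
Log2 difference between KO and WT averaged over the 5 times for each of the 75 genes, grouped by complex, with bars for the standard error of the fit and filled points for an adjusted p under 0.05. Each complex with more than 1 gene holds genes on either side of 0, from Atp5a1 at -0.97 to Cox8a at 0.54.

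No complex moved as a block. In complex I, 18 of 33 genes were higher in KO, 8 were lower and 7 did not pass, with a median of 0.09. Its catalytic core subunits split 2 higher and 2 lower of 5 (neither rise kept its call under median scaling), and its accessory subunits 16 higher and 5 lower of 27, with 1 further probe annotated to a pseudogene. The accessory rises of Ndufa1, Ndufa5, Ndufa9, Ndufa10, Ndufb4, Ndufb7 and Ndufs6 were not called in all 5 scaling and background settings tried. The 5 accessory falls were. The lean of complex I toward higher genes thus rested in part on the processing. The call of Ndufb4 also ended when any of 17 of the 32 arrays was left out. Complex II had 1 higher, 1 lower and 1 that did not pass: Sdhd, a membrane anchor, at 0.28 ± 0.0739 SE, the iron-sulphur subunit Sdhb at -0.19 ± 0.0492, and the other anchor Sdhc at 0.01 ± 0.0318. In complex III, 1 of 6 was higher and 3 were lower. Complex IV split 4 higher and 4 lower of 12, and the ATP synthase 7 higher and 5 lower of 15. Of the 5 assembly factors 2 were lower, Ndufaf4 (-0.34 ± 0.057) and the methyltransferase Ndufaf7 (-0.13 ± 0.0468), and 3 did not pass. Cox7a2l was higher (0.24 ± 0.0419).

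In 9 genes the arrays of the genotypes did not overlap, 5 higher and 4 lower in KO. Of all genes, 7.05% were called higher and 5.39% lower without overlap, against 6.67% and 5.33% of the members. Cox8a, the ubiquitous form of the smallest complex IV subunit, ranged on KO arrays from 12.49 to 12.87 with a median of 12.69, against 12.02 to 12.25 with a median of 12.15 on WT arrays. The lowest KO array stood above the highest WT array. The difference was 1.45-fold (log2 0.54 ± 0.0345 SE, limma adjusted p = 4.25e-14) and changed little with time, from 0.53 ± 0.0685 at 0 min to 0.55 ± 0.0791 at 240 min. At 0 min the 4 KO arrays read 12.72, 12.69, 12.68 and 12.70 and the 4 WT arrays 12.22, 12.16, 12.13 and 12.14. Cox8a thus separated the genotypes on every array before FGF was given.

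Ndufb3, an accessory subunit in the membrane arm of complex I, ranged from 9.46 to 10 on KO arrays (median 9.68), against 9.04 to 9.34 on WT arrays (median 9.21). It was 1.43-fold higher in KO (0.52 ± 0.0371, limma adjusted p = 5.09e-13). The difference was 0.47 ± 0.0737 at 0 min and 0.86 ± 0.0851 at 120 min, where the KO arrays read 10, 10 and 9.99. Before FGF the KO arrays read 9.68, 9.64, 9.57 and 9.75 and the WT arrays 9.23, 9.16, 9.34 and 9.04. Atp5l, subunit g of the membrane part of the ATP synthase, ranged from 11.32 to 11.85 on KO arrays (median 11.58), against 10.93 to 11.26 on WT arrays (median 11.11). It was 1.41-fold higher in KO (0.50 ± 0.0398, limma adjusted p = 6.16e-12), and its difference too was widest at 120 min (0.77 ± 0.0913, against 0.51 ± 0.0791 at 0 min, with KO arrays at 11.48 to 11.71 and WT arrays at 10.93 to 11.26 then). For both genes all KO arrays lay above all WT arrays. Ndufa8, an accessory subunit of complex I that faces the intermembrane space, ranged from 11.92 to 12.25 on KO arrays (median 12.05), against 11.54 to 11.88 on WT arrays (median 11.77). Its difference was 1.23-fold (0.30 ± 0.0318, limma adjusted p = 1.7e-09), and its second probe gave 0.29 ± 0.0332. At 0 min it was 0.20 ± 0.0632 (limma adjusted p = 0.0108), with KO arrays at 11.95 to 12.13 and WT arrays at 11.73 to 11.88.

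The paired core proteins of complex III went in opposite directions. Uqcrc1 ranged from 10.92 to 11.11 on KO arrays (median 11.03), against 10.46 to 10.69 on WT arrays (median 10.61), and was 1.34-fold higher in KO (0.43 ± 0.0297, limma adjusted p = 2.99e-13). Uqcrc2 ranged from 10.51 to 11.13 on KO arrays (median 10.91), against 11.04 to 11.54 on WT arrays (median 11.33), so that KO cells had 1.35-fold less (-0.44 ± 0.0432, limma adjusted p = 5.18e-10). Uqcrc2 was singled out after its values were seen, because a few of its KO and WT arrays overlap. At 0 min the KO arrays of Uqcrc1 read 11.05, 11.02, 10.99 and 11.06 and its WT arrays 10.64, 10.61, 10.5 and 10.67 (0.42 ± 0.0591). Each gene had its direction and was called at all 5 times in the main fit. The call of Uqcrc2 at 60 min ended when any of 3 of 6 arrays was left out (highest limma adjusted p 0.0768). That of Uqcrc1 at 120 min did not hold in all 5 scaling and background settings. Within an array, the log2 value of Uqcrc1 minus that of Uqcrc2 lay between -0.12 and 0.60 on KO arrays (median 0.13), against -1.04 to -0.45 on WT arrays (median -0.71). The zero of this difference has no meaning, because the probes differ. A constant added to all log2 values of an array would not change it. Quantile normalization, used here, is not such a constant, so the size of the shift between genotypes can depend on it. The accessory subunit Uqcrh, the hinge protein that helps cytochrome c dock, was also lower in KO (-0.34 ± 0.0384).

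The ATP synthase held the largest fall. Atp5a1, which encodes the alpha subunit of the catalytic F1 head, ranged from 9.62 to 10.35 on KO arrays (median 10.02), against 10.66 to 11.31 on WT arrays (median 10.98). It was 1.97-fold lower in KO (log2 -0.97 ± 0.0556 SE, limma adjusted p = 3.46e-15). Before FGF the KO arrays read 10.27, 10.04, 9.95 and 10.22 and the WT arrays 10.87, 10.78, 10.66 and 11.13, with no overlap. The log2 difference was -0.74 ± 0.111 at 0 min, -0.78 ± 0.128 at 15 min, -1.02 ± 0.128 at 60 min, -1.26 ± 0.128 at 120 min and -1.08 ± 0.128 at 240 min. Whether it differs between 0 and 120 min is taken up with the responses.

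Atp5b, the beta subunit that carries the catalytic sites of the same head, ranged from 14.12 to 14.54 on KO arrays (median 14.35), against 14.66 to 14.76 on WT arrays (median 14.72). It was 1.3-fold lower in KO (-0.38 ± 0.0278, limma adjusted p = 1.1e-12). At 0 min its KO arrays read 14.36, 14.34, 14.25 and 14.34 and its WT arrays 14.72, 14.72, 14.72 and 14.76 (-0.40 ± 0.0553). Atp5b lay at ranks 17 to 39 of 25697 probes on KO arrays and at ranks 11 to 13 on WT arrays. Quantile normalization gives each rank 1 value, so its WT values repeat and its size of change is set by the spacing of the brightest probes. Of the 3 stalk subunits of F1, Atp5d was lower (-0.32 ± 0.035) while Atp5c1 (0.16 ± 0.0375) and Atp5e (0.20 ± 0.0712) were higher. The stator that holds the head split in the same way: Atp5pb was higher (0.34 ± 0.0412), Atp5j higher (0.17 ± 0.0359) and Atp5h lower (-0.11 ± 0.0418), and Atp5o did not pass (-0.07 ± 0.043). Under kept-probe median scaling the calls of Atp5c1 (0.07), Atp5e (0.16) and Atp5j (0.09) ended, and under all-probe scaling those of Atp5c1 (0.10) and Atp5j (0.12). The call of Atp5h ended without KO 240 min replicate A (adjusted p = 0.0513). Genes of the membrane part other than Atp5l included Atp5mpl (0.24 ± 0.0436) and Atp5j2 (-0.09 ± 0.0314).

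Of complex I, Ndufa12, an accessory subunit at the junction of its arms, ranged from 11.10 to 11.53 on KO arrays (median 11.38), against 11.58 to 12.01 on WT arrays (median 11.84). It was 1.38-fold lower in KO (-0.47 ± 0.0348, limma adjusted p = 1.45e-12). Ndufs7, a core subunit that holds the last iron-sulphur cluster before coenzyme Q, ranged from 11.14 to 11.55 on KO arrays (median 11.40), against 11.66 to 12 on WT arrays (median 11.78), and was 1.31-fold lower (-0.39 ± 0.034, adjusted p = 3.91e-11). In both genes every KO array lay below every WT array. At 0 min the KO arrays of Ndufa12 read 11.40 to 11.53 and its WT arrays 11.79 to 11.96 (-0.43 ± 0.0692), and those of Ndufs7 read 11.35 to 11.51 in KO and 11.82 to 11.90 in WT (-0.46 ± 0.0676). Larger falls with some overlap, named here after their values were seen, were those of Ndufab1 (-0.76 ± 0.0679), the mitochondrial acyl carrier protein, and of the probe annotated to Ndufs5-ps (-0.54 ± 0.0465), a pseudogene of a complex I subunit. Transcripts of a pseudogene and of its near-identical parent cannot be told apart on such a probe. Of the other core subunits Ndufs8 was lower (-0.17 ± 0.0298), Ndufs3 (0.19 ± 0.0324) and Ndufv2 (0.09 ± 0.037) were higher and the flavin-binding Ndufv1 did not pass (-0.07 ± 0.0328). The calls of Ndufs3 and Ndufv2 ended under either median scaling, with Ndufs3 at 0.10 and Ndufv2 at 0.02 for all probes and at 0.07 and -0.01 for kept probes. The call of Ndufv2 also ended without WT 120 min replicate C or WT 240 min replicate A (highest adjusted p 0.0668).

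**Figure D2:**
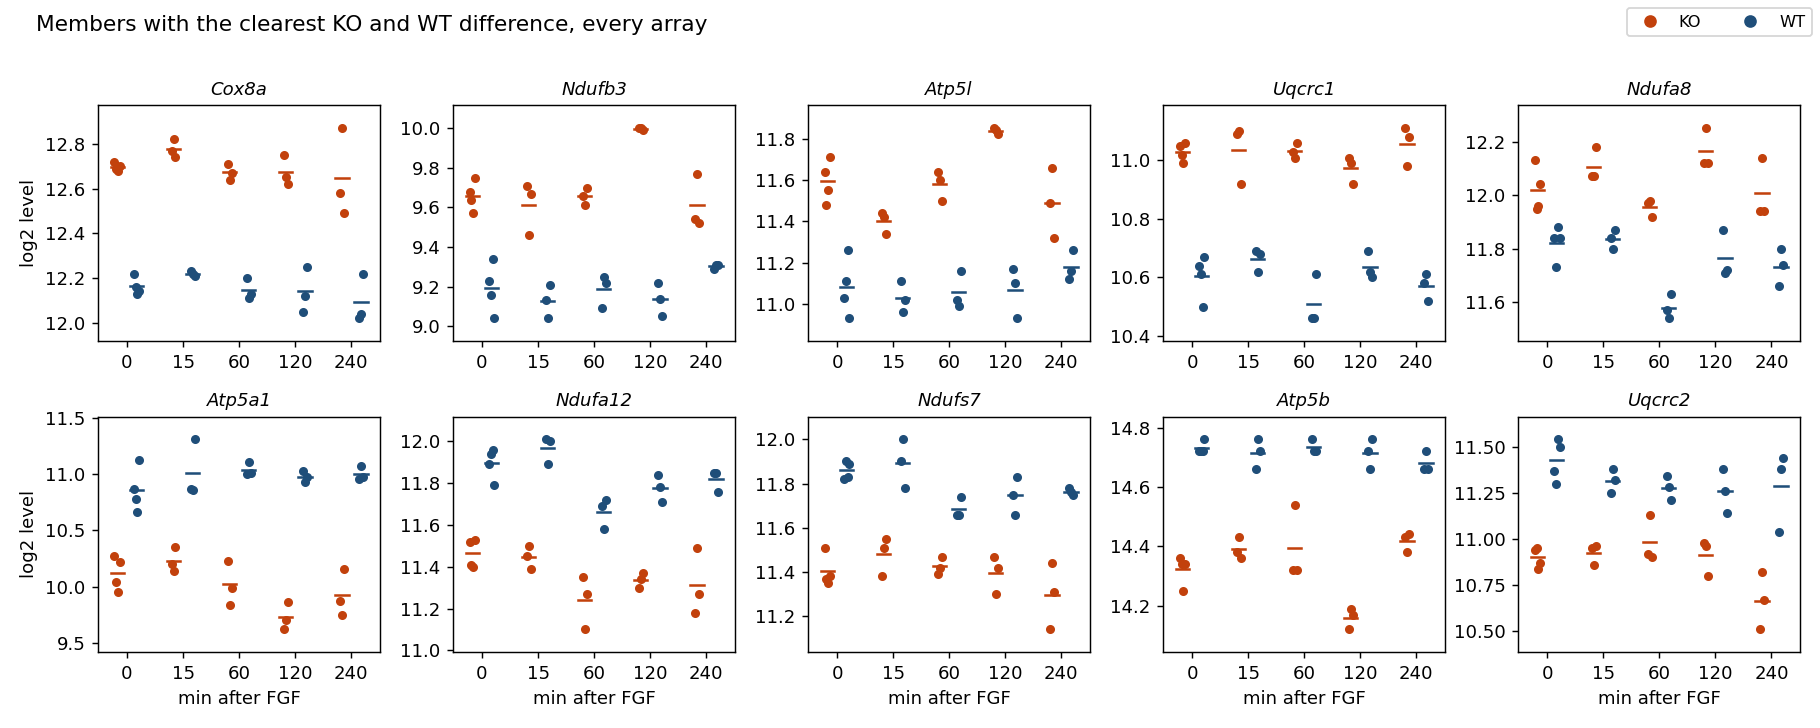
Log2 normalized level of 10 genes on every array by minutes after FGF, with KO points left of WT points and a line at each group mean. In the top row, from Cox8a to Ndufa8, all KO arrays lie above all WT arrays, and in the bottom row Atp5a1, Ndufa12, Ndufs7 and Atp5b lie below them, while a few arrays of Uqcrc2 overlap.

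Several subunits of complexes IV and V exist as paralogues, with tissue forms and ubiquitous forms. Cox4i1, the ubiquitous form of the regulatory subunit of complex IV, was higher in KO (0.17 ± 0.0328), a call that ended under either median scaling (0.11 for all probes, 0.08 for kept probes), and its hypoxia and lung form Cox4i2 was detected on 1 of 32 arrays. Cox6a1 was lower (-0.10 ± 0.027) and its second probe gave -0.09 ± 0.0329, with the muscle form Cox6a2 detected on 1 array. Cox6b1 was lower (-0.21 ± 0.0344, and -0.16 ± 0.0392 on its second probe), with the testis form Cox6b2 detected on 0. Cox7a2, the liver-type form, was higher (0.27 ± 0.0698) and its muscle-type paralogue Cox7a1 was lower (-0.14 ± 0.0581, limma adjusted p = 0.0359). Cox7a1 lay near background, with KO arrays at 4.71 to 5.48 (median 4.93) and WT arrays at 4.77 to 5.52 (median 5.03), and its call ended when any of 11 of the 32 arrays was left out (highest adjusted p 0.0757, without KO 120 min replicate C). The 3 genes for the c-ring of the ATP synthase encode the same mature protein with different import signals. Of these Atp5g2 was higher (0.25 ± 0.0371), while Atp5g1 (0.00 ± 0.0358) and Atp5g3 (0.02 ± 0.0311) did not pass. Ndufa4 did not pass (-0.04 ± 0.0365), and its hypoxia-linked paralogue Ndufa4l2 was not analysed here.

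For 13 genes more than 1 probe was kept. In 9 of them all probes had the same sign in the averaged difference, and in 0 did probes pass in opposite directions in that difference. At 0 min, however, probes of Ndufv3 did, in a fit of all kept probes. Its brightest probe was higher in KO (0.26 ± 0.0685, limma adjusted p = 0.00273). Its dimmest, with a mean level of 5.75, was lower (-0.35 ± 0.141, limma adjusted p = 0.048). Across the 5 scaling and background settings tried, 41 of the 55 called genes kept their call and direction in the average over times, 19 higher and 22 lower. All 9 genes without overlap are among them.

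At single times the counts shifted. At 0 min 20 genes were higher in KO and 13 lower, against 22.2% and 23.7% of all genes. At 15 min 10 were higher and 14 lower (19.1% and 20.8% of all genes). At 60 min 24 were higher and 10 lower (21% and 21%), and at 120 min 27 were higher and 10 lower (21.2% and 22.6%). At 240 min the split turned, with 11 higher and 23 lower (21.9% and 22%). The members' medians at these times were 0.05, 0.04, 0.08, 0.13 and -0.08. Genes called at every time were 5 higher, Atp5l, Cox8a, Ndufa8, Ndufb3 and Uqcrc1, and 8 lower, Atp5a1, Atp5b, Atp5d, Ndufa12, Ndufab1, Ndufs5-ps, Ndufs7 and Uqcrc2. Of all genes 11.5% were called higher and 10.1% lower at every time, against 6.67% and 10.7% of these. No gene was called higher at 1 time and lower at another, and 16 were called at no single time. Some genes called at every time lost a call when 1 array was left out. For Atp5d this held for 3 of 6 arrays at 60 min and 4 of 6 at 240 min. For Uqcrc2 it held for 3 of 6 at 60 min, for Atp5l for 1 of 6 at 240 min and for Ndufa8 for 1 of 8 at 0 min.

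The counts at single times depended on the scaling, and so did some calls of the genes called at every time. The 8 lower genes kept their call at each time in all 5 scaling and background settings. Of the higher genes only Cox8a did. Atp5l lost its call in at least 1 setting at 15 and 240 min, Ndufb3 at 240 min and Uqcrc1 at 120 min. Ndufa8 did so at every time. With each array set to the median of its kept probes, the split of higher and lower was 7 and 16 at 0 min, 5 and 15 at 15 min, 7 and 22 at 60 min, 21 and 10 at 120 min and 3 and 32 at 240 min. With the median of all probes it was 22 and 8, 3 and 10, 7 and 13, 5 and 12, and 3 and 16. These settings also moved the median of all genes, by up to -0.12 at 120 min for all probes and to -0.11 at 0 min for kept probes. Of the called genes, 15 of 33 at 0 min, 12 of 24 at 15 min, 16 of 34 at 60 min, 15 of 37 at 120 min and 18 of 34 at 240 min kept call and direction in all 5 settings. At 0 min these were Atp5l, Cox8a, Ndufb11, Ndufb2, Ndufb3, Sdhd and Uqcrc1, higher in KO, and Atp5a1, Atp5b, Atp5d, Ndufa12, Ndufab1, Ndufs5-ps, Ndufs7 and Uqcrc2, lower in KO.

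**Figure D3:**
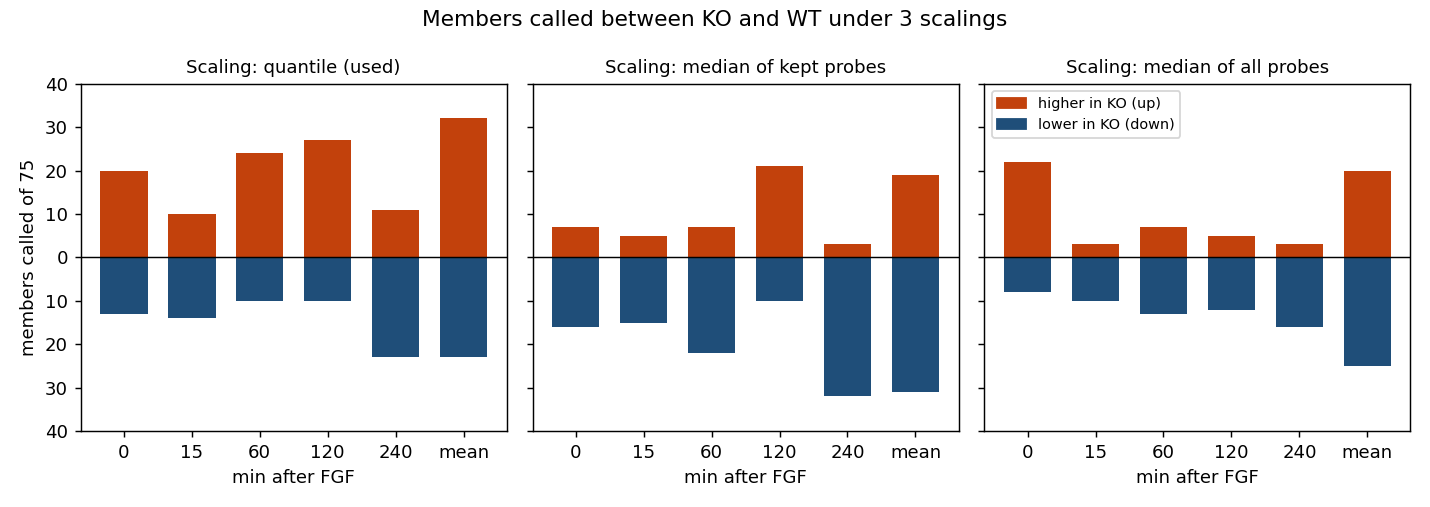
Number of the 75 genes called higher in KO (bars up) and lower in KO (bars down) at each time and for the mean of the times, under quantile normalization and under 2 median scalings. At 120 min 27 were higher and 10 lower with quantile normalization, but 5 and 12 with the median of all probes.

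The promoters of 5 of these genes are shown because they hold a motif of factors known to drive respiratory genes. Nuclear respiratory factor 1 binds GCGCATGC, the ETS family member GABP binds CCGGAAGT, and YY1 binds AAGATGGC. These letters were searched on both strands from 250 bases before to 30 bases after the start annotated by RefSeq (GRCm38.p6), a window of 280 bases. A window was given for 65 of the 75 genes. At least 1 of the 3 motifs stood in the windows of 17 of these 65 genes (26.2%), against 9.14% of the 27025 genes of the table. The first motif was held by 9 of 65 (13.8%, against 2.92% of the table), the ETS motif by 5 (7.69%, against 4.12%) and the YY1 motif by 4 (6.15%, against 2.66%). The table was not limited to genes detected here, and no set of equally bright genes was compared. These shares therefore do not show a trait particular to respiratory genes. By direction in KO, a motif stood in 9 of 30 higher genes, 6 of 18 lower genes and 2 of 17 genes that did not pass. Cox8a holds the ETS motif, Ndufa8 and Atp5l that of nuclear respiratory factor 1, Atp5pb that of YY1, and Ndufaf4 that of nuclear respiratory factor 1 at 2 places, at 1 of which it reads on both strands with overlap. Sequences read 5′ to 3′ toward the gene, with the motif in capitals.
Cox8a (chr19:7217587-7217866, minus strand): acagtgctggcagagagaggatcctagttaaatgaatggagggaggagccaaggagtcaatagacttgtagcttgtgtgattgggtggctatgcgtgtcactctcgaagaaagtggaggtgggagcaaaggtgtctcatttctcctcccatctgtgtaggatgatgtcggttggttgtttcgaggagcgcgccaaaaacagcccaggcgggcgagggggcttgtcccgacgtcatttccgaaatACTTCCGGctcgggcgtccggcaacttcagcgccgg
Ndufa8 (chr2:36049309-36049588, minus strand): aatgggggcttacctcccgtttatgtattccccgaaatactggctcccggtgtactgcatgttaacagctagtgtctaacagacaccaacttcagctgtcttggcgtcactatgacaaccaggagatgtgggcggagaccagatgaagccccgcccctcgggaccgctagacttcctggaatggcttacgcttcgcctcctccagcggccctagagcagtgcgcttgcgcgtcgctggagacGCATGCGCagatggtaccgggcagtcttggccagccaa
Atp5l (chr9:44920713-44920992, minus strand): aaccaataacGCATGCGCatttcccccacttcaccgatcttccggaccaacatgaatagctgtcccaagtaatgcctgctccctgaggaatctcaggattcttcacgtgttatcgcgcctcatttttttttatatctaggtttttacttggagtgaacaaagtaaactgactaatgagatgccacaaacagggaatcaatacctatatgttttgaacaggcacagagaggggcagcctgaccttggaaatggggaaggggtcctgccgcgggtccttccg
Atp5pb (chr3:105959234-105959513, minus strand): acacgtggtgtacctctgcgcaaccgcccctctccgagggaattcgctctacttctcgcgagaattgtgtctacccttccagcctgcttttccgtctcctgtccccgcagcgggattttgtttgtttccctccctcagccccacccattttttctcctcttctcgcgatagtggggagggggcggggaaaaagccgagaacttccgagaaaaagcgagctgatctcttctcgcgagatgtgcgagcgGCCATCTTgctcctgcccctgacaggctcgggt
Ndufaf4 (chr4:24897833-24898112, plus strand): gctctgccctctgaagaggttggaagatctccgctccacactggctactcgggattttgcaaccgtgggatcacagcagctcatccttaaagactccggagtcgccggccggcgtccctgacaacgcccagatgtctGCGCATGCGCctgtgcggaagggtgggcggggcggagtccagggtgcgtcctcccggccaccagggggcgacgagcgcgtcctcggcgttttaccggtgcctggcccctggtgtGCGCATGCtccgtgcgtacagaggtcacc
In Cox8a the motif begins at position -6 from the start and in Ndufa8 at -8, both on the strand opposite to the gene. In Atp5pb it begins at -3 and in Atp5l at -240, likewise opposite to the gene. Such letters are a description of the window. Whether a factor bound there was not measured.

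Few of these genes were called after FGF in WT cells. Against WT at 0 min, limma called 0 of 75 at 15 min (1.14% of all genes higher, 1.16% lower, and 4 members at an unadjusted p under 0.05). At 60 min 0 were higher and 5 lower (3.15% and 2.1% of all genes, and 21 members at an unadjusted p under 0.05). At 120 min 1 was higher (2.04% of all genes) and 0 lower (1.98%), and at 240 min 2 were higher (7.66%) and 0 lower (8.33%). Among the 1836 other bright genes 6.54% were called at 60 min and 21.9% at 240 min in WT. The 5 genes at 60 min were Ndufb7, Ndufa8, Ndufs3, Atp5o and Atp5pb. Ndufb7, an accessory subunit of complex I, read 8.14, 8.04 and 8.16 at 60 min, against 8.34, 8.24, 8.63 and 8.52 at 0 min, with no overlap (log2 -0.32 ± 0.083 SE, limma adjusted p = 0.0185). Atp5o, part of the stator, read 9.34, 9.39 and 9.55 at 60 min, against 9.85, 9.70, 9.86 and 9.66 at 0 min (-0.34 ± 0.0922, adjusted p = 0.0242). Atp5pb, the main stator subunit, read 9.95, 9.82 and 9.82, against 10.13, 10.20, 10.29 and 10.13 at 0 min (-0.32 ± 0.0885). In these 3 genes all arrays at 60 min lay below all at 0 min, as they did in the remaining pair. Ndufa8 read 11.57, 11.54 and 11.63, against 11.84, 11.73, 11.88 and 11.84 (-0.25 ± 0.0682), and the core subunit Ndufs3 10.41, 10.32 and 10.35, against 10.60, 10.59, 10.55 and 10.62 (-0.23 ± 0.0695). The members' median at 60 min was -0.12, with all genes at -0.01.

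These calls were not firm. The count at 60 min was 0 under either median scaling and 0 when only the WT 0 and 60 min arrays were fitted. It was 0 without WT 60 min replicate B, 1 without WT 60 min replicate A or WT 0 min replicate C, 2 without WT 0 min replicates A or D, and 3 without WT 60 min replicate C. The call of Ndufs3 ended whichever of the 7 arrays was left out (highest limma adjusted p 0.162). That of Ndufa8 ended for 5 of 7, and those of Ndufb7, Atp5o and Atp5pb for 4 of 7 each. The gene called at 120 min was Ndufb11, an X-linked accessory subunit of complex I, with 6.11, 6.14 and 5.69 at 120 min, against 5.61, 5.53, 5.54 and 5.30 at 0 min (0.49 ± 0.142, limma adjusted p = 0.0458). Its call ended without any of WT 0 min replicates A, B, C or D or WT 120 min replicates A or B (highest adjusted p 0.22), which left 0 genes.

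At 240 min in WT, Ndufaf4 and Cox7a1 were higher, although their arrays overlap with those at 0 min. Ndufaf4, which helps assemble complex I, read 9.13, 9.34 and 9.49 at 240 min, against 8.66, 9, 9.20 and 8.78 at 0 min (log2 0.41 ± 0.122 SE, limma adjusted p = 0.0197). Cox7a1 read 5.52, 5.17 and 5.32 at 240 min, against 4.90, 4.78, 4.91 and 5.31 at 0 min, where 1 of 4 arrays detected it (0.36 ± 0.125, adjusted p = 0.0467). Only the call of Ndufaf4 held in all 5 scaling and background settings. Without WT 0 min replicate A or WT 240 min replicate C 0 genes were called, and without WT 0 min replicates B or D or WT 240 min replicates A or B 1 was.

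In KO cells most calls came at 120 min. Against KO at 0 min, limma called 0 of 75 at 15 min (0.394% of all genes higher, 0.422% lower, and 6 members at an unadjusted p under 0.05). It called 0 at 60 min (3.19% higher, 2.47% lower, and 11 members unadjusted), although it called 4 without KO 60 min replicate A, 2 without KO 0 min replicate B and 1 without KO 0 min replicate C. At 120 min 12 were higher and 2 lower, against 6.14% and 9.03% of all genes, with 27 members at an unadjusted p under 0.05. At 240 min 0 were higher (10.2% of all genes) and 4 lower (11.1%), while of the other bright genes 21.8% were called at 120 min and 27.3% at 240 min. Of the 12 higher at 120 min, 9 belong to complex I, and they are accessory subunits: Ndufa6, Ndufb3, Ndufb6, Ndufb7, Ndufb10, Ndufc1, Ndufs4, Ndufs6 and Ndufv3. The others were Uqcr10, Cox6b1 and Atp5g1. Ndufb7 read 8.68, 8.88 and 8.81 at 120 min, against 8.30, 8.40, 8.40 and 8.38 at 0 min in KO (0.42 ± 0.083, limma adjusted p = 0.000717). The 3 later arrays stood above all earlier ones. Ndufb3 read 10, 10 and 9.99 at 120 min, against 9.68, 9.64, 9.57 and 9.75 at 0 min (0.33 ± 0.0796, adjusted p = 0.0042). It too rose without overlap. Ndufb10 read 8.26, 8.24 and 8.33 at 120 min, against 7.86, 7.85, 7.72 and 8.21 at 0 min (0.36 ± 0.124), and Ndufb6 11.79, 11.75 and 11.76, against 11.62, 11.38, 11.44 and 11.47 (0.29 ± 0.0852). Ndufs4 read 12.40, 12.23 and 12.35, against 12.05, 12.04, 12.06 and 12.13 (0.25 ± 0.0846), and the c-ring gene Atp5g1 11.78, 11.65 and 11.57, against 11.55, 11.37, 11.28 and 11.52 (0.24 ± 0.0769). None of these 4 overlapped between the times, but leaving out 1 array ended the call for 6 of 7 arrays in Ndufb10, 3 in Ndufb6, 5 in Ndufs4 and 4 in Atp5g1.

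The rise of complex I genes in KO at 120 min turned on the scaling. With the median of all probes 0 members were higher and 10 lower at 120 min in KO, and that setting moved the median of all genes to -0.21. With the median of the kept probes 20 were higher and 1 lower. Ndufa6, Ndufc1 and Ndufv3 changed sign or lay at 0 with the median of all probes (-0.02, -0.01 and 0). The fall of Atp5a1 was the call that held in all 5 settings. Its KO arrays read 9.62, 9.70 and 9.86 at 120 min, against 10.27, 10.04, 9.95 and 10.22 at 0 min (log2 -0.39 ± 0.119 SE, limma adjusted p = 0.0238), with no overlap. Cox6c, a membrane subunit of complex IV, read 11.37, 11.72 and 11.62 at 120 min, against 12.07, 11.78, 12.04 and 12.36 at 0 min (-0.49 ± 0.145, adjusted p = 0.0198). The count of 14 became 2 without KO 120 min replicate A, 5 without KO 0 min replicate B and 6 without KO 0 min replicate A or KO 120 min replicate B. It was 4 when only the KO 0 and 120 min arrays were fitted. The call of Atp5a1 ended when any of 4 of the 7 arrays was left out (highest adjusted p 0.109, without KO 120 min replicate A), and that of Cox6c for 2 of 7 (0.128, without the same array).

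**Figure D4:**
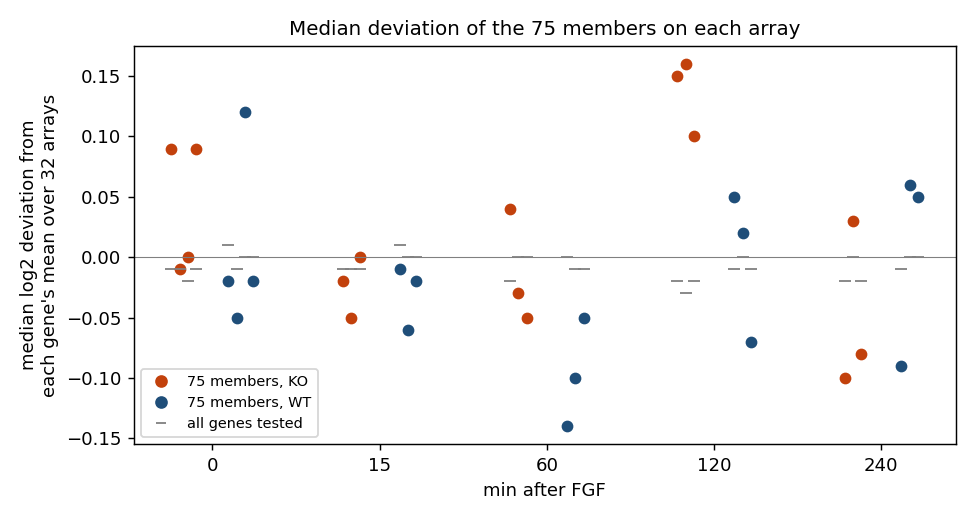
Median over the 75 genes of the log2 deviation from each gene's mean over 32 arrays, 1 point per array by minutes after FGF, KO left of WT, with a grey dash for the same median over all genes tested. The 3 KO arrays at 120 min lie at 0.10 to 0.16 and the 3 WT arrays at 60 min at -0.14 to -0.05, while the dashes stay between -0.03 and 0.01.

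As a group the genes moved by little. On the 3 KO arrays at 120 min their median deviation from the gene means was 0.15, 0.16 and 0.10, and on the WT arrays at 120 min 0.05, 0.02 and -0.07. At 60 min the KO arrays lay at 0.04, -0.03 and -0.05, against -0.14, -0.10 and -0.05 on the WT arrays. At 240 min the KO arrays lay at -0.10, 0.03 and -0.08, against -0.09, 0.06 and 0.05 on the WT arrays. The 4 KO arrays at 0 min lay at 0.09, -0.01, 0 and 0.09, all below the 3 KO arrays at 120 min. The 4 WT arrays at 0 min alone ran from -0.05 to 0.12, so these shifts are of the size of the spread within that group.

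At 240 min 4 genes were lower in KO. Ndufaf7, which encodes a methyltransferase needed for complex I assembly, read 7.33, 7.02 and 7 at 240 min, against 7.5, 7.60, 7.47 and 7.69 at 0 min (log2 -0.45 ± 0.1 SE, limma adjusted p = 0.00163). All 3 later arrays stood below the earlier ones. Ndufa9, an accessory subunit near the coenzyme Q site, read 11.28, 11.35 and 11.13 at 240 min, against 11.66, 11.50, 11.49 and 11.40 at 0 min (-0.26 ± 0.0711, adjusted p = 0.00971). The core subunit Ndufv2 read 11.24, 11.23 and 11.26, against 11.46, 11.46, 11.33 and 11.63 at 0 min (-0.23 ± 0.0794, adjusted p = 0.0402). Uqcrh read 11.89, 12.26 and 11.84, against 12.28, 12.17, 12.17 and 12.33 at 0 min, with overlap (-0.24 ± 0.0824, adjusted p = 0.0347). The calls of Ndufaf7 and Ndufa9 held in all 5 scaling and background settings. The count of 4 became 1 without KO 240 min replicate C, 2 without KO 0 min replicates A or D or KO 240 min replicate A, and 8 without KO 240 min replicate B. The call of Ndufaf7 held whichever of the 7 arrays was left out (highest adjusted p 0.0192), and that of Ndufa9 ended without KO 240 min replicate C (0.0953). The call of Ndufv2 ended for 6 of 7 arrays (0.149, without KO 0 min replicate D) and that of Uqcrh for 4 of 7 (0.256, without KO 240 min replicate C).

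The responses of the genotypes were then compared by the interaction of genotype and time. Limma called 0 of 75 differences at 15 min (0.055% of all genes), 0 at 60 min (0.706%) and 0 at 120 min (1.86%), with 0, 4 and 19 members at an unadjusted p under 0.05. At 120 min it called 2 without WT 0 min replicate D, 1 without WT 0 min replicate B and 5, all lower in KO, with the median of all probes. At 240 min 1 was called, against 7.86% of all genes. The wider gap of Atp5a1, Ndufb3 and Atp5l at 120 min is therefore not shown to differ from that at 0 min after adjustment. The gene at 240 min was Ndufaf7, whose response was lower in KO by 0.53 on the log2 scale (-0.53 ± 0.142 SE, limma adjusted p = 0.02). Its WT arrays read 7.48, 7.76 and 7.83 at 240 min, against 7.68, 7.47, 7.81 and 7.48 at 0 min, and overlap. At 240 min itself it was lower in KO than in WT (-0.57 ± 0.107, adjusted p = 7.22e-05), while at 0 min it was not called (-0.04 ± 0.093, adjusted p = 0.731). The interaction ended without WT 240 min replicates B or C or KO 240 min replicate C (highest adjusted p 0.0748), and 2 genes were called without KO 0 min replicate B or KO 240 min replicate B. When only the 4 groups of that interaction were fitted, 0 were called.

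**Figure D5:**
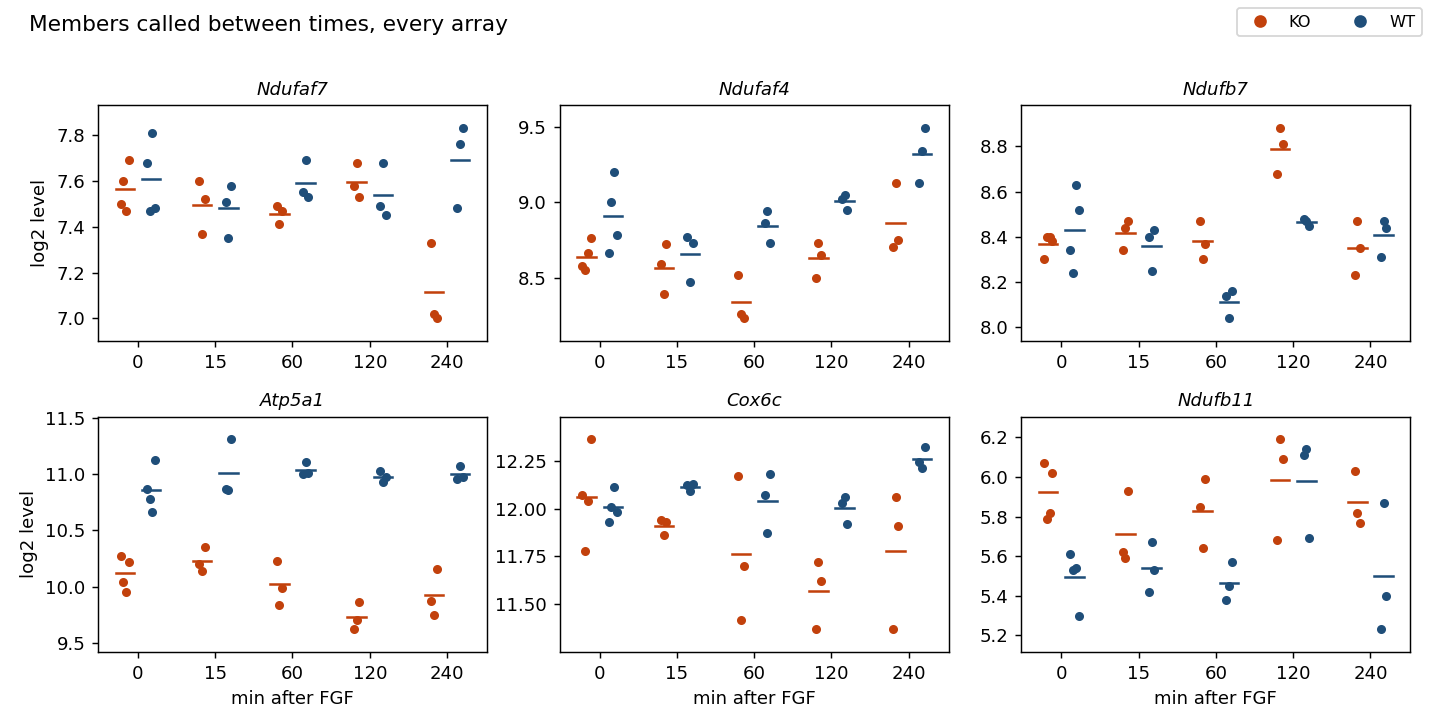
Log2 normalized level on every array of 6 genes called between times, by minutes after FGF, with KO points left of WT points and a line at each group mean. The 3 KO arrays of Ndufaf7 at 240 min lie at 7 to 7.33, below all other arrays of the gene, and the 3 KO arrays of Ndufb7 at 120 min at 8.68 to 8.88, above all others.

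The wider pathway was read from lists of related genes, in KO against WT averaged over the times, where 31.8% of all genes were higher and 35.6% lower. Other scalings and left-out arrays were not tried on the lists. All list counts, here and below, therefore rest on quantile normalization with all arrays. Of 38 assembly factors tested (5 of which are the Ndufaf genes above), 12 were higher and 12 lower in KO, with a median of 0.03. The copper chaperone Cox17 (0.50 ± 0.0371) and the complex IV assembly gene Cox14 (0.52 ± 0.0517) were higher, and Coa7 (-0.61 ± 0.0772), another complex IV factor, and Sdhaf1 (-0.51 ± 0.0557), which helps insert iron-sulphur clusters into complex II, lower. At 240 min in KO, 1 of the 38 was higher and 13 were lower than at 0 min, with a median of -0.18, while in WT 3 were higher and 2 lower (median 0.09). Of all genes 10.2% were higher and 11.1% lower at 240 min in KO, and 7.66% and 8.33% in WT. Among the 13 were Coa6 (-0.60 ± 0.0953), Sdhaf1 (-0.57 ± 0.12) and Tmem126b (-0.65 ± 0.147), which also fell in WT (-0.45 ± 0.147). In the difference of the 240 min responses 0 of the 38 were higher in KO and 4 lower, with a median of -0.22, where 7.86% of all genes were called in either direction.

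By the same averaged difference, with 31.8% of all genes higher and 35.6% lower, 4 of 20 regulators of respiratory gene expression were higher and 12 lower in KO, with a median of -0.18 where all genes had -0.02. The largest 4 were all lower: Tfam (-0.57 ± 0.0449), which packages mitochondrial DNA, the mitochondrial RNA polymerase Polrmt (-0.55 ± 0.0391), the termination factor gene Mterf1a (-0.54 ± 0.0566) and the coactivator gene Ppargc1b (-0.47 ± 0.0753, detected on 12 of 32 arrays). Nrf1, named because the motif of its protein was searched, was higher (0.14 ± 0.0459). Of 17 carriers, porins and import genes 3 were higher and 8 lower (median -0.12), with the import translocase Timm50 (-0.68 ± 0.0402), the chaperone Hspa9 (-0.65 ± 0.0441) and the porin Vdac3 (-0.36 ± 0.0451) lower and the translocase Timm17a higher (0.39 ± 0.0399). The 15 citric acid cycle and pyruvate dehydrogenase genes split 6 higher and 5 lower (median 0.03), with Dlst at 0.50 ± 0.0484, malate dehydrogenase Mdh2 at -0.48 ± 0.039, citrate synthase Cs at -0.47 ± 0.0487 and Pdhb at -0.40 ± 0.0542. The 8 coenzyme Q genes split 3 and 3 (Coq10b 0.55 ± 0.0432, Coq7 -0.49 ± 0.0456, Coq4 0.28 ± 0.0648, Coq5 -0.25 ± 0.0369). Of 5 further genes of complexes III to V, Higd2a was higher (0.53 ± 0.0302), and Cyc1, which encodes cytochrome c1 (-0.18 ± 0.0365), and Atpif1, the inhibitor of ATP synthase reversal (-0.13 ± 0.0308), were lower. Of 3 hypoxia targets 1 was higher, Pdk1 (0.91 ± 0.0576), which restrains pyruvate dehydrogenase, and 1 was lower, Bnip3l (-0.17 ± 0.0439).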

How the data were processed

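RNA of 32 samples was hybridised to Illumina mouse bead arrays. The deposited intensity of each probe is linear and not normalized between arrays, per the file headers. GenomeStudio 1.9.0 is listed in the submitters' processing notes. Each probe also has a deposited fraction on each array, taken from its values to be 1 minus the detection p-value. The authors' series matrix holds a second intensity (column medians 10.1 to 10.2), linear from its values, which served as an alternative. No source used here says how it was made. Left unused were 192 other columns with values of single samples.

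Intensities were corrected in R 4.3.3 with limma 3.58.1: normexp (offset 16, negative controls estimated by way of the detection p-values), then log2, then quantile normalization. Probes detected (p under 0.05) on at least 3 arrays were kept, 14716 of 25697, and the brightest stood for its gene. Symbols came from the platform annotation, which gives 1 symbol to 23978 probes and none to 1719. The fit by lmFit and eBayes took the means of all 10 groups together, with 22 residual degrees of freedom and 5.28 prior ones. Calls needed an adjusted p under 0.05 (Benjamini-Hochberg, 10903 genes), and all adjusted p-values and standard errors are limma's. Values per array are log2 normalized intensities, and the number of arrays limits their precision. No 2 arrays held identical values.

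The members and lists were chosen with earlier results of these data known. Named in full are up to 6 rises and 6 falls per comparison among called members whose arrays do not overlap, together with paralogue pairs and up to 4 called genes per list. On simulated data for KO against WT, with 10903 genes, 18%, 64%, 100% and 100% of shifts of 0.25, 0.5, 1 and 2 on the log2 scale were recovered at 0 min and 78%, 100%, 100% and 100% averaged over the times. The simulated noise was normal and independent, and only a small share of the genes was shifted. In the data 4995 genes were called at 0 min and 7350 averaged over the times. The adjustment is stricter where few genes change, so these rates do not carry over to the data. Alternatives changed the offset, background, scaling, source, filter, probe choice, samples fitted and replicate term, or left out 1 array.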

Additional observations from a re-analysis of the deposited data

Results flagged for a closer look

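Within the groups of 4 arrays at 0 min, the 9 genes whose genotypes did not overlap were examined for an array far from the rest. Atp5b stood out in both genotypes. In KO, replicate C (14.25, against 14.34 to 14.36 on the other KO arrays) was separated by a gap of 0.833 of the group's range. Chance marks about 5% of groups of 4 when values are not tied. In WT, replicate D read 14.76 and each other WT array 14.72, so the gap is 1, the whole range, by construction: quantile normalization tied the 3 other values by rank, and any differing array would be marked. The WT mark therefore carries no information about that array, and the KO values of so bright a probe are tied to its rank in the same way (2 of the KO arrays read 14.34).

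The response of Ndufaf7 at 240 min differed between the genotypes by -0.53 (KO minus WT, log2), by the interaction test in limma. It is the 1 member called in that comparison, and its call ended without any of 3 of 14 arrays.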

How the results depend on the processing

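Counts of called members averaged over the times ran from 51 to 57 when 1 array was left out, and no setting moved that count by over 1.5 times. For KO against WT, leaving out 1 array gave 25 to 33 at 0 min, 19 to 25 at 15 min, 25 to 35 at 60 min, 30 to 37 at 120 min and 23 to 30 at 240 min. With all-probe median scaling there were 13 at 15 min, 20 at 60 min, 17 at 120 min and 19 at 240 min, where fitting only the groups compared gave 17. The WT response at 60 min had 8 calls with an offset of 50, 9 with detection on all 32 arrays and 0 with either median scaling or only its groups (0 to 5 without 1 array). At 120 min in WT 0 were called without normexp, in the series matrix, without a filter, with the mean of probes or with only its groups (0 to 1 without 1 array). At 240 min in WT 1 was called with an offset of 50, without normexp, with either median scaling, in the series matrix, without a filter or with detection on all arrays, and 0 with only its groups (0 to 2 without 1 array). The KO response at 60 min had 2 calls with an offset of 50 or kept-probe scaling and 3 with all-probe scaling or detection on all arrays (0 to 4 without 1 array). At 120 min in KO 4 were called with only its groups (2 to 12 without 1 array), and at 240 min 2 with kept-probe scaling and 1 with only its groups (1 to 8 without 1 array). Differences of responses at 120 min had 2 calls with an offset of 50, 5 with all-probe scaling and 1 with kept-probe scaling or detection on all arrays (0 to 2 without 1 array). Those at 240 min had 0 with only their groups (0 to 2 without 1 array). Responses at 15 min, and differences at 15 and 60 min, had 0 calls whichever array was left out. The causes of these shifts were not tested.

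With the replicate letter as a block (replicate block), the WT responses at 60 and 120 min had 2 and 0 calls and the KO responses at 120 and 240 min 8 and 2, and no other count moved by over 1.5 times. Same-letter arrays did not regularly deviate together: over 13 pairs of groups, 0 had every correlation over 0.1 (-0.19 to 0.16). Such correlations of deviations from group means cannot show whether arrays of a letter shared a culture or a day. Slide as a block was not run, since the headers give no slide. Signs turned or reached 0 with kept-probe scaling for Atp5g1 (-0.10), Ndufv2 (-0.01) and Sdhc (-0.10) averaged over the times, Cox5a at 60 min (0) and Ndufs3 at 240 min (0). All-probe scaling did so for Ndufs3 at 120 min (-0.05) and the KO responses at 120 min of Ndufa6 (-0.02), Ndufc1 (-0.01) and Ndufv3 (0), and the mean of probes for Ndufa5 at 120 min (-0.01). Scaling over all probes moved the median of all genes by -0.27, -0.17 and -0.12 in the differences of responses at 120, 60 and 15 min. Of the values of single genes under the alternatives, 5550 kept direction and call, 607 lost the call, 28 gained it and 10 turned.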
